A study of Mus musculus with 70 samples.

Results

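Voltage-gated sodium and calcium channels were followed across 2 mouse models of Sonic Hedgehog medulloblastoma, a tumour of the cerebellum that grows from granule neuron progenitors. The set holds 30 genes, chosen by symbol: 5 sodium channel alpha subunits, 3 sodium channel beta subunits, the sodium leak channel Nalcn, 8 calcium channel pore subunits, 4 calcium channel beta subunits, 4 alpha2delta subunits and 5 gamma subunits. All 30 had a row in both deposited count tables, which held 53379 and 37954 genes. Polyadenylated RNA of whole tumours was sequenced, so that fewer cells of a type and less RNA per cell cannot be told apart.

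The first model, Math1-Cre; SmoM2, carries an activated Smoothened switched on by a Cre driven from Math1, the gene that marks granule neuron progenitors. All 10 of its tumours carry Math1-Cre and SmoM2; 7 were labelled Kcnb2 wild-type and 3 Kcnb2 knockout, and Kcnb2 encodes a voltage-gated potassium channel. The second model, Lazy Piggy, combines a Ptch1 allele that the labels do not describe further with Nestin-driven luciferase and SB100 transposase, Nestin-Cre, a piggyBac transposase fused to an estrogen receptor domain behind a lox-stop-lox cassette at Rosa26, and the Lazy Piggy transposon; Nestin is active in neural stem and progenitor cells, and tamoxifen releases the piggyBac enzyme to move the transposon again. All Lazy Piggy tumours carry these alleles, and 29 were labelled as given tamoxifen and 30 as not given it. A further 1 library had no treatment label and entered no comparison. The labels gave no ages and did not say that each library was a separate animal, and the spread behind each p-value is that between libraries, which may be technical.

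Voltage-gated sodium channels open on depolarization and carry the upstroke of the action potential; their alpha subunit forms the pore and small beta subunits tune gating and placement. Nalcn is not opened by depolarization in the same way and carries a resting sodium leak. Voltage-gated calcium channels turn depolarization into calcium entry: the pore-forming alpha1 subunits fall into the L-type (Cav1), the P/Q-, N- and R-type (Cav2) and the low-voltage T-type (Cav3) classes, cytoplasmic beta subunits and extracellular alpha2delta subunits bring them to the membrane, and several gamma subunits act mainly as partners of AMPA-type glutamate receptors. In the cerebellum the mature granule neurons, Purkinje cells and interneurons fire action potentials, and Purkinje cells depend on P/Q-type calcium channels.

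Of the 30 genes, 23 matched RefSeq's promoter table (GRCm38.p6), with 34 windows from 250 bases before to 50 bases after an annotated start. The windows of the 4 genes that rose with tamoxifen are shown, 5′ to 3′ on the gene's strand, since these genes moved together. Scn1a is at chr2:66440788-66441087 on the minus strand, Scn2b at chr9:45117626-45117925, Scn4b at chr9:45138374-45138673 and Cacna2d2 at chr9:107399630-107399929, the last 3 on the plus strand. Scn2b and Scn4b are neighbours on chromosome 9, in the same direction, with 0 coding genes between them in GENCODE M21. Capitals mark exact matches, on either strand, to the motifs described after the sequences.
Scn1a: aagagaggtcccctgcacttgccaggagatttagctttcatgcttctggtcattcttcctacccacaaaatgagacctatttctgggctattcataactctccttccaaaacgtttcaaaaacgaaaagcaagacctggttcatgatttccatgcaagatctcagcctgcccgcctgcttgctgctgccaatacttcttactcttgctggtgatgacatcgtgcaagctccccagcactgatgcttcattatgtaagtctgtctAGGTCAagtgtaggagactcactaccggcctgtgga
Scn2b: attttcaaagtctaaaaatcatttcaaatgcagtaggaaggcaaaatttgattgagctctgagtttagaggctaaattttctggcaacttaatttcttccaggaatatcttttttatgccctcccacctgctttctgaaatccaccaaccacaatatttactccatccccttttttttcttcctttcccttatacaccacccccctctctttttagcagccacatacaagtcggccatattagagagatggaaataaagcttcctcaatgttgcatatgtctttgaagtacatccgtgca
Scn4b: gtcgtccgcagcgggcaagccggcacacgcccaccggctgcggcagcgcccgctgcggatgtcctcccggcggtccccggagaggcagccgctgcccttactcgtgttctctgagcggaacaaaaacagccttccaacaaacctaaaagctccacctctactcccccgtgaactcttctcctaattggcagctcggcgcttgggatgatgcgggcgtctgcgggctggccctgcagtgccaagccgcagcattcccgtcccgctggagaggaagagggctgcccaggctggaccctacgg
Cacna2d2: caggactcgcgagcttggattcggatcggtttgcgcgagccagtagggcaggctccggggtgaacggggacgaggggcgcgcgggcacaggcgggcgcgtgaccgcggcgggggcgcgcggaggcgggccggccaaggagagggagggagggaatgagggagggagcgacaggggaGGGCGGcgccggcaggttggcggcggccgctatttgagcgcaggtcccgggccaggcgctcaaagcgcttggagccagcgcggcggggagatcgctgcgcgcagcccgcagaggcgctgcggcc

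Motifs were searched on both strands as exact strings, none of which lies within another. The E-box CAGCTG was in 29.4% of the 34 windows of channel genes and in 16.3% of all 32851 windows, and the GC box GGGCGG was in 38.2% and 35.7%. The nuclear receptor element AGGTCA was in 8.82% and 16.3%, the cyclic AMP response element TGACGTCA in 0% and 1.79%, and the GLI site GACCACCCA in 2.94% and 0.253%. The GLI site match was in 1 window, of Cacnb4. In the 4 windows shown, the matches were 1 AGGTCA in Scn1a and 1 GGGCGG in Cacna2d2, and Scn2b and Scn4b had none of these letters. The 4 windows thus shared no match to these motifs. Their GC content was 47.3%, 38.3%, 66.3% and 75.7% for Scn1a, Scn2b, Scn4b and Cacna2d2, against a median of 60.3% over the windows of channel genes and 52.7% over all windows.

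SmoM2 libraries held 23923453 to 39387125 counts and Lazy Piggy libraries 5869618 to 8667344. Kcnb2 was at 11.6 ± 1.89 CPM (the count scaled to a library total of 1000000; SD, n = 3) in the tumours labelled knockout and 32.4 ± 13.6 CPM (n = 7) in those labelled wild-type, and its log2 fold change of -1.38 ± 0.51 (SE) had an edgeR adjusted p of 0.567. The library labelled wild-type replicate 3 had the lowest Kcnb2 level of the 7, 8.44 CPM, below all 3 knockouts. Its title ends like those of the knockouts, while its genotype label and the name of its count column read wild-type. That column was matched to the title by its leading numbers only. Without this library the log2 fold change of Kcnb2 was -1.82 ± 0.32 (edgeR adjusted p = 0.8375). The 6 channel genes with the smallest p and the medians by role are given with and without this library. Of the SmoM2 tumours, all 3 knockouts were female by their Y-linked genes, against 4 of 7 wild-types. Among Lazy Piggy tumours, tamoxifen replicate 14 stood apart in the channel genes and is reported separately below. In SmoM2 tumours, oligodendrocyte markers were highest in knockout replicates 1 and 2 and in wild-type replicate 4, with values beside the comparison.

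Levels were compared between genes only per kilobase of exon (CPM per kb). In the SmoM2 tumours labelled wild-type, the gamma subunit Cacng7 was highest at 54.8 ± 14.0 CPM per kb (SD, n = 7), then Cacng2, known as stargazin and a partner of AMPA receptors, at 34.9 ± 9.59, then the alpha2delta subunit Cacna2d1, a gabapentin target, at 28.9 ± 7.37. The Lazy Piggy tumours had the same 3 genes in the same order, at 54.5 ± 12.2, 48.5 ± 9.12 and 37.4 ± 8.69 CPM per kb (n = 59). Auxiliary subunits therefore had the highest levels in both models, with Cacng4 next at 25.5 and 18.5 CPM per kb.

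The highest sodium channel genes were lower down. In SmoM2 tumours Scn8a, the main alpha subunit of mature axon initial segments, followed at 12.3 ± 2.47 CPM per kb. In Lazy Piggy tumours Nalcn came next at 10.3 ± 3.15 CPM per kb. The highest pore-forming calcium channel gene was N-type Cacna1b in SmoM2 tumours, at 10.1 ± 1.39 CPM per kb. In Lazy Piggy tumours P/Q-type Cacna1a had the highest mean of these genes, 8.14 ± 5.28 CPM per kb (n = 59), with Cacna1b next. The order of these 2 turned without tamoxifen replicate 14, at 7.67 ± 3.87 for Cacna1a and 7.80 ± 2.24 for Cacna1b (n = 58).

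At the bottom of both orders were Scn9a, best known from pain-sensing neurons (0.0591 ± 0.0235 and 0.0392 ± 0.0363 CPM per kb), Cacna2d4, best known from the retina (0.0972 ± 0.0390 and 0.0768 ± 0.0455), and the beta subunit Cacnb2 (0.452 ± 0.229 and 0.320 ± 0.420). Scn9a and Cacna2d4 had means under 1 CPM in Lazy Piggy tumours and in wild-type SmoM2 tumours. Most neighbours in the order could not be separated: of 29 neighbouring pairs in each model, 3 differed by more than their SD. In SmoM2 tumours these were Cacng7 over Cacng2, Cacng4 over Scn8a and Cacnb2 over Cacna2d4; in Lazy Piggy tumours they were Cacng2 over Cacna2d1, Cacna2d1 over Cacng4 and Cacng4 over Nalcn.

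Both models are in separate tables, so levels between them were set side by side without a test. The T-type gene Cacna1h was at 1.93 ± 0.805 CPM per kb in SmoM2 and 0.420 ± 0.203 in Lazy Piggy tumours. Cacng8, an AMPA receptor partner, was at 3.86 ± 0.574 in SmoM2 tumours, from 3.49 to 5.14, and at 1.77 ± 0.565 in Lazy Piggy tumours, from 0.661 to 3.15.

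**Figure D1:**
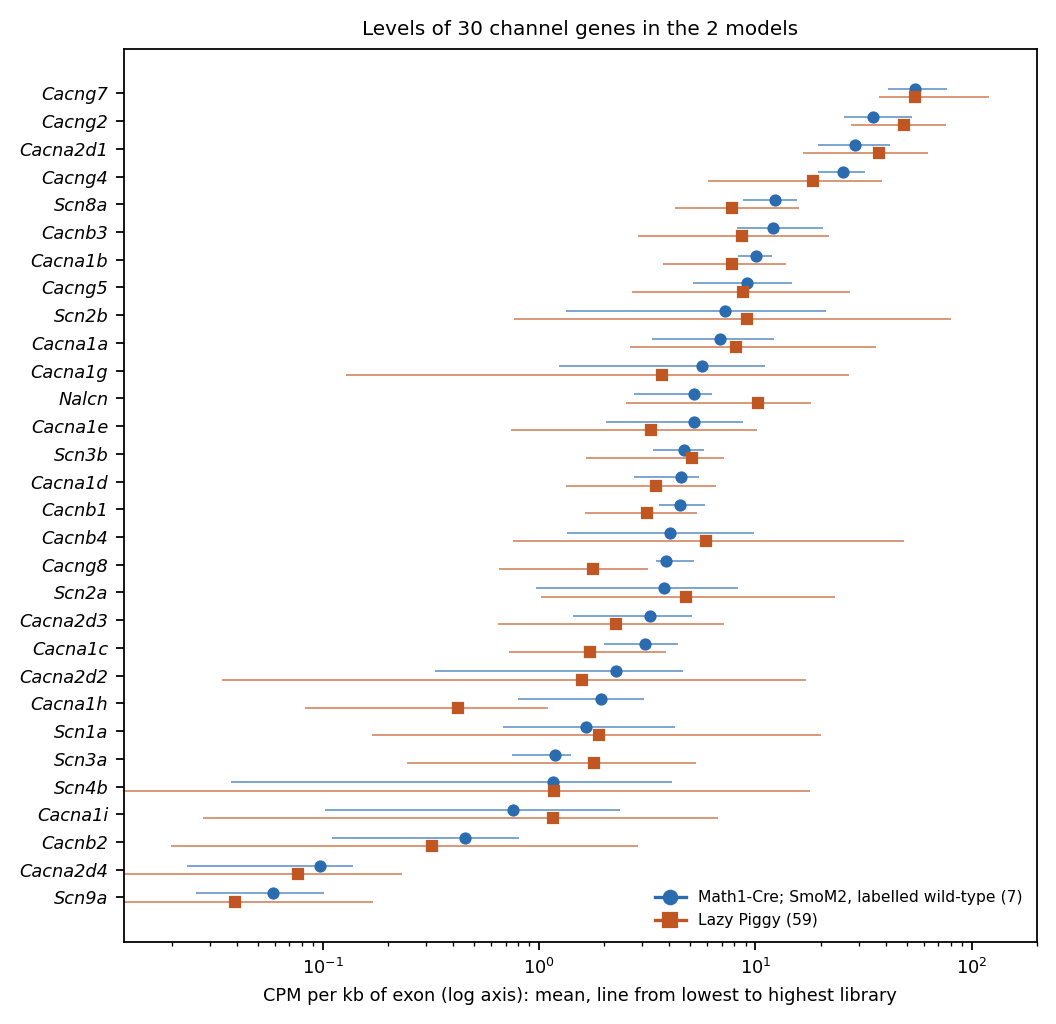
Levels of the 30 genes per kilobase of exon (log axis), ordered by the SmoM2 mean; circles are means of 7 SmoM2 tumours labelled wild-type, squares means of 59 Lazy Piggy tumours, and lines run from the lowest to the highest library (to the left edge where the lowest was 0: Scn4b, Cacna2d4 and Scn9a). Cacng7, Cacng2 and Cacna2d1 lead in both models, and Scn9a is lowest at 0.0591 and 0.0392.

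Genes differed in their spread over tumours. In Lazy Piggy tumours the highest library was above the lowest by 2.71-fold for Cacng2, 3.17-fold for Cacng7, 3.66-fold for Scn8a and 3.71-fold for Cacna2d1. It was above it by 116-fold for Scn1a, 103-fold for Scn2b, 492-fold for Cacna2d2, 236-fold for Cacna1i, 209-fold for Cacna1g and 142-fold for Cacnb2. Without tamoxifen replicate 14, these were 43.7-fold, 44.2-fold, 187-fold, 171.5-fold, 93.9-fold and 52.05-fold in the same order. The lowest of all these libraries held 0.273 CPM of Cacna2d2, 0.279 of Cacna1i and 0.264 of Cacnb2, so the ratios of these genes rest on few reads. Scn4b had 0 counts in 1 tamoxifen and 4 other tumours and reached 88.3 CPM. The 3 genes with the highest level per kilobase were among the narrow ones, and their lowest libraries lay far above such low counts.

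In the Kcnb2 comparison no channel gene passed the test. Titles were written in 2 forms, and the fit held the form as a covariate. The 3 knockouts had the form of wild-type replicates 1 to 3, so the fold changes rest on these 3 wild-types, the doubted replicate 3 among them, while the 4 others enter only the spread. In the edgeR quasi-likelihood fit over 19864 genes 0 of 30 had an adjusted p under 0.05, and 0 of all genes did (0.0%). At an unadjusted p under 0.05 there were 6 channel genes, all higher in the knockout, against 4.48% of all genes that were higher at that p. The DESeq2 test called 0 channel genes, with 9 at an unadjusted p under 0.05 against 5.58% of all genes higher at that p, and called 10 genes in all, 3 higher and 7 lower. The 28 log2 fold changes above 0 among the 30 compare with 50.2% of all genes, and the median was 0.52 against 0.00 over all genes.

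The 6 with the smallest p, none of which passed, were led by Cacng8. It was at 14.8, 13.8 and 13.1 CPM in knockout replicates 1 to 3, and at 8.86, 8.19, 8.83, 12.05, 8.53, 8.57 and 8.32 CPM in wild-type replicates 1 to 7. Each knockout lay above each wild-type, which no other channel gene showed and which held for 2.06% of all genes. Its log2 fold change was 0.69 ± 0.20 (SE; edgeR p = 0.00618, adjusted p = 0.567), and 0.70 ± 0.24 (adjusted p = 0.8375) without wild-type replicate 3.

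Scn1a, the alpha subunit prominent in inhibitory neurons, was at 76.7, 61.6 and 23.9 CPM in the knockouts and at 18.8, 9.19, 18.2, 47.1, 7.63, 19.6 and 8.36 CPM in the wild-types. Knockout replicate 3 lay below wild-type replicate 4, so the groups overlapped. Its log2 fold change was 1.81 ± 0.71, and its edgeR adjusted p was 0.567; without wild-type replicate 3 it was 1.94 ± 0.86. The T-type gene Cacna1i was at 27.6, 39.0 and 14.8 CPM in the knockouts and at 8.62, 2.62, 6.43, 23.1, 1.02, 5.25 and 4.97 CPM in the wild-types. Wild-type replicate 4 again lay above knockout replicate 3, and wild-type replicate 5 was lowest. Its log2 fold change was 2.21 ± 0.92, with the same edgeR adjusted p, and 2.27 ± 1.13 without wild-type replicate 3.

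Cacna1a, the P/Q-type pore of Purkinje cells and of many presynaptic terminals, was at 193, 308 and 114 CPM in the knockouts and at 121, 72.9, 56.2, 137, 38.2, 74.5 and 47.0 CPM in the wild-types. Scn9a was at 3.59, 1.75 and 0.96 CPM in the knockouts and between 0.33 and 1.28 CPM in the wild-types. Cacng4 was at 116, 108 and 138 CPM in the knockouts and between 70.5 and 114 CPM in the wild-types. Each of the 3 overlapped between groups. The log2 fold changes were 1.304 ± 0.531 for Cacna1a, 1.38 ± 0.56 for Scn9a and 0.49 ± 0.21 for Cacng4, and the edgeR adjusted p was 0.567 for each. Without wild-type replicate 3 they were 1.08 ± 0.61, 1.52 ± 0.67 and 0.36 ± 0.23.

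By role, the median log2 fold changes were 1.38 over the 5 sodium channel alpha subunits, 1.72 over the 3 sodium channel beta subunits, 1.14 over the 3 T-type genes and 0.81 over the 3 Cav2 genes. They were 0.78 over the 4 calcium channel beta subunits, 0.59 over the 4 alpha2delta subunits, 0.49 over the 5 gamma subunits and 0.30 over the 2 L-type genes. Without wild-type replicate 3 these medians were 1.39, 1.90, 1.11, 0.595, 0.73, 0.615, 0.36 and 0.20 in the same order. Nalcn was at 65.2 ± 6.89 CPM (n = 3) against 76.6 ± 17.1 (n = 7), a log2 fold change of 0.01 ± 0.22 in the fit, where wild-type replicates 1 to 3 had a mean of 65.2 CPM. The 2 negative values were Cacna1h at -0.21 ± 0.44 and Cacna2d1 at -0.20 ± 0.24, and none of these values passed the test. The sign of Nalcn changed in the fits with sex, with no title covariate and with no filter, and that of Cacna1h when 1 library was left out.

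Levels of other cell markers are set beside these values, and no relation between them was computed in SmoM2 tumours. The 10 oligodendrocyte markers summed to 4834, 2522 and 938 CPM in the knockouts and to between 150 and 3134 CPM in the wild-types, where replicate 4 was highest and replicate 5 lowest. The 9 mature granule neuron markers summed to 1272, 1864 and 734 CPM against 173 to 1053, the 10 Purkinje markers to 606, 1112 and 595 CPM against 34.3 to 1083, and the 8 interneuron markers to 567, 548 and 347 CPM against 196 to 501. The 15 cell cycle genes summed to 2238, 1998 and 3340 CPM against 2632 to 3959. For these 5 lists the median log2 fold changes were 1.76, 1.63, 1.51, 1.74 and -0.46, with 0 genes called in each. The 12 pericyte, smooth muscle and fibroblast markers summed to 214.8, 248.4 and 200.2 CPM in the knockouts and to between 287.4 and 433.2 CPM in the wild-types, ranges that did not overlap; of 11 tested 0 were called (median -0.30). No gene of the 4 cell type lists was at 0 in all libraries. Other lists had medians of 0.138 (astrocytes), 0.155 (granule neuron differentiation), -0.327 (microglia and macrophages) and -0.167 (endothelium). The median was -0.229 for granule progenitor and Hedgehog genes and -1.695 for choroid plexus genes, with 0 genes called in each list. The part of any of these cells in the channel values was not tested.

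The count of channel genes higher at an unadjusted p moved with single libraries, and so did the share of all genes higher at that p. Without the library labelled wild-type replicate 3 it was 2 of 30, against 2.93% of all genes, and with that library counted as a knockout 0, against 2.04%. It was 1 without wild-type replicate 2 (1.51% of all genes) and 1 without knockout replicate 1 (1.38%). Without wild-type replicate 1 it was 10 (8.07%), without wild-type replicate 4 it was 10 (7.55%) and without wild-type replicate 5 it was 14 (5.83%). Without knockout replicate 3 it was 9 (7.08%). With no title covariate it was 13 (9.17%), with sex as a covariate 12 (8.14%) and with no low-count filter 11 (4.16%). No channel gene passed adjustment in any of these fits, and between 24 and 29 of the 30 log2 fold changes were above 0.

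**Figure D2:**
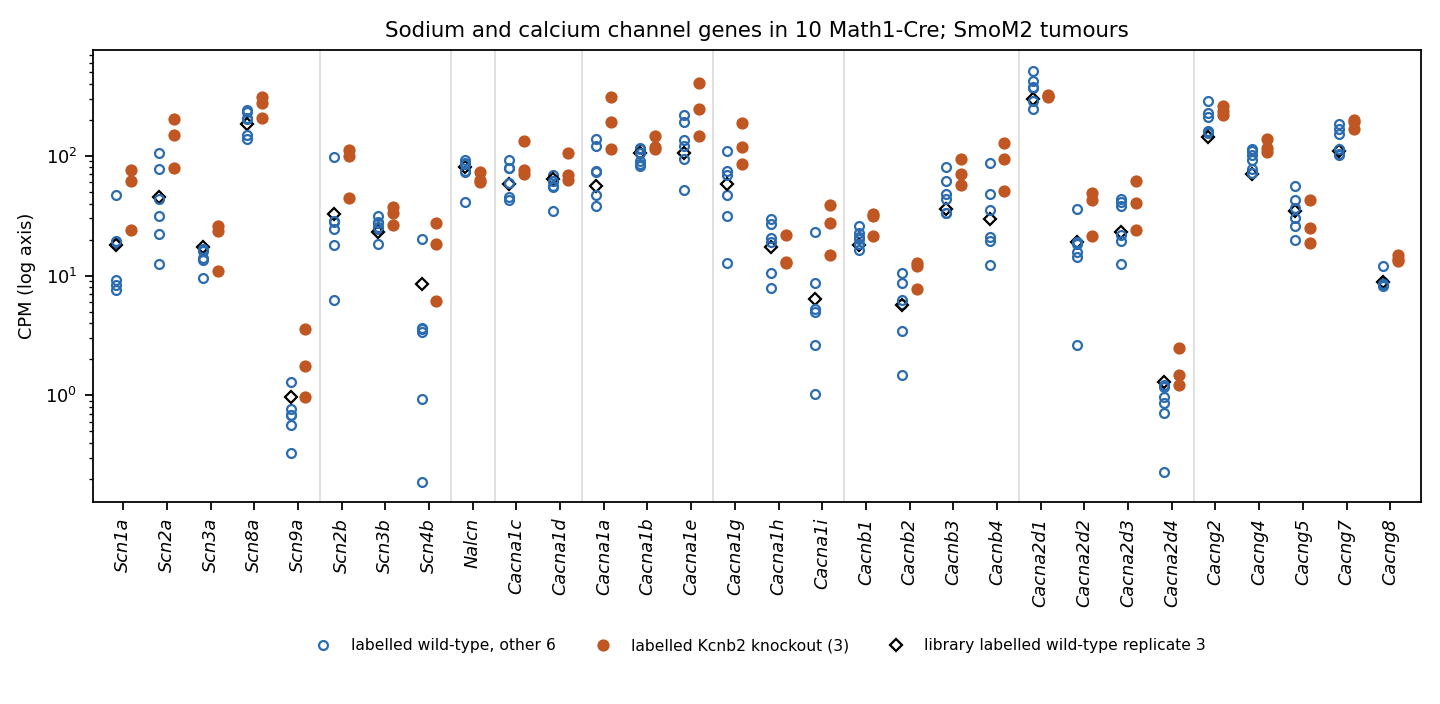
CPM (log axis) of the 30 genes in each of 10 SmoM2 tumours: open circles and the open diamond are the 7 labelled wild-type, with the diamond for replicate 3, and filled circles the 3 labelled knockout; grey lines part the roles. The groups overlap for each gene but Cacng8, where the knockouts lie at 13.1 to 14.8 and the wild-types at 8.19 to 12.05.

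Among other channel genes in the Kcnb2 comparison, 7 of 11 were measured above the filter, 3 had a log2 fold change above 0 and 0 passed. Of 19 partners of these channels, such as the fibroblast growth factor homologous factors that bind sodium channels and the ankyrins that anchor them, 16 were above 0 with a median of 0.43, and 0 passed. Of 22 genes for calcium stores, pumps and sensors, 20 were above 0 with a median of 0.49, and 0 passed.

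With tamoxifen, 4 channel genes rose and 0 fell. These were the sodium channel genes Scn1a, Scn2b and Scn4b and the alpha2delta gene Cacna2d2. The edgeR fit tested 13735 genes and called 3.82% of them, 3.33% as higher; of the 30 channel genes, Scn9a and Cacna2d4 did not pass the filter on low counts. The 28 tested genes had a median log2 fold change of 0.04, against -0.01 over all genes, and 15 were above 0, against 47.7% of all genes. At an unadjusted p under 0.05 there were 8 of 28, against 18.8% of all genes; 6 were higher, against 12.0% of all genes, and 2 lower, against 6.77%.

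Scn4b encodes a beta subunit found in fast-firing neurons, Purkinje cells among them. It ran from 0 through a median of 3.48 to 88.3 CPM in the 29 tamoxifen tumours and from 0 through 0.627 to 14.9 CPM in the other 30. The groups overlapped, and 23 of 29 tamoxifen tumours lay above the median of the others. Means were 9.58 ± 17.0 and 2.20 ± 3.79 CPM (SD), and the log2 fold change was 2.18 ± 0.55 (SE; edgeR adjusted p = 0.0196).

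Scn1a ran from 2.04 through 19.4 to 222 CPM with tamoxifen and from 1.91 through 6.08 to 58.2 CPM without. The groups overlapped over most of the range, with 21 of 29 tamoxifen tumours above the other median. Means were 30.9 ± 42.3 and 11.7 ± 13.2 CPM, and the log2 fold change was 1.44 ± 0.38 (edgeR adjusted p = 0.0233).

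Cacna2d2, the alpha2delta subunit strongly expressed in Purkinje cells, ran from 1.18 through 11.5 to 134.5 CPM with tamoxifen and from 0.273 through 2.18 to 37.1 CPM without. Of 29 tamoxifen tumours, 24 lay above the other median, while the ranges overlapped. Means were 18.6 ± 26.0 and 6.57 ± 9.78 CPM, and the log2 fold change was 1.55 ± 0.45 (edgeR adjusted p = 0.0387).

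Scn2b, a beta subunit linked covalently to the alpha subunit, ran from 3.59 through 38.1 to 368.5 CPM with tamoxifen and from 5.13 through 15.5 to 129.9 CPM without. The lowest and the highest tumour of the 59 were both tamoxifen tumours, and 21 of 29 lay above the other median. Means were 59.04 ± 73.01 and 27.0 ± 28.8 CPM, and the log2 fold change was 1.16 ± 0.35 (edgeR adjusted p = 0.0470).

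A single tumour carried much of these values. Tamoxifen replicate 14 was the highest of the 59 for 13 channel genes and the lowest for 3. How often it was highest or lowest over all genes was not computed. It held 222 CPM of Scn1a, 368.5 of Scn2b, 88.3 of Scn4b, 134.5 of Cacna2d2, 432 of Cacnb4 and 406 of Cacna1a. It was lowest for Scn3a at 3.09 CPM, Scn3b at 9.12 CPM and Cacna2d1 at 208.5 CPM. Scn3a is an alpha subunit known for its embryonic expression, and Scn3b a beta subunit also expressed early.

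Without that tumour no channel gene passed. The log2 fold changes were then 1.60 ± 0.51 for Scn4b (edgeR adjusted p = 0.0936), 1.02 ± 0.34 for Scn1a (0.112), 1.12 ± 0.42 for Cacna2d2 (0.167) and 0.81 ± 0.33 for Scn2b (0.199), and 138 genes were called over the whole table. The means of the remaining 28 tamoxifen tumours were 6.77 ± 7.80 CPM for Scn4b, 24.1 ± 21.3 for Scn1a, 14.5 ± 13.7 for Cacna2d2 and 48.0 ± 43.1 for Scn2b, each above the mean without tamoxifen. Over the 59 fits that left out each tumour in turn, Scn1a and Scn4b were called in 58, Cacna2d2 in 38 and Scn2b in 22. With no low-count filter, Scn2b had an edgeR adjusted p of 0.0604 and the other 3 still passed.

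**Figure D3:**
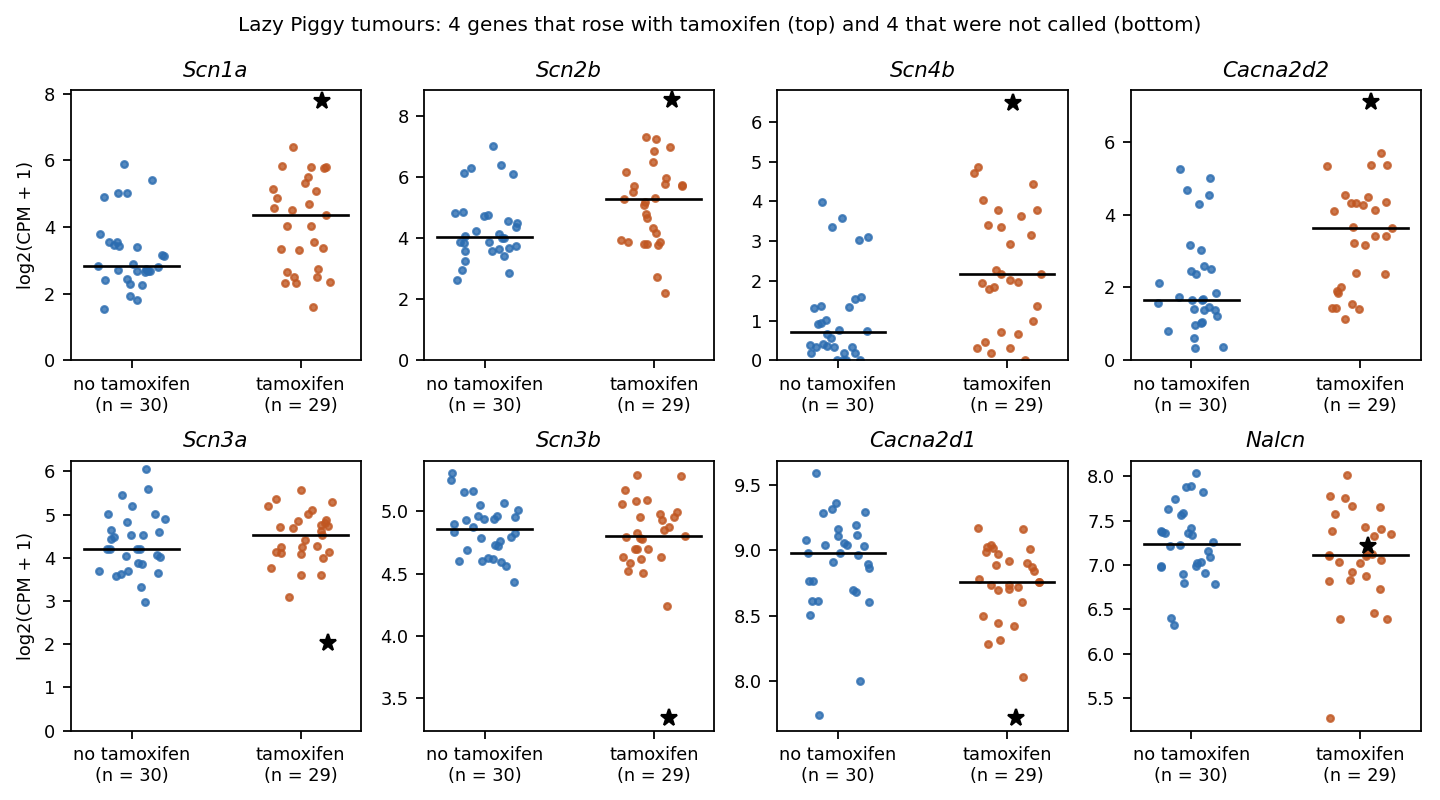
log2(CPM + 1) in each Lazy Piggy tumour without (n = 30) and with tamoxifen (n = 29) for the 4 genes that rose and 4 that were not called; bars are medians, the star is tamoxifen replicate 14, and the vertical axes differ in range. The star is the highest point in each upper panel (222 CPM for Scn1a) and the lowest for Scn3a, Scn3b and Cacna2d1.

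Tumour titles that read as dates gave an earlier period with 14 tamoxifen and 10 other tumours and a later one with 15 and 20. The log2 fold change of Scn4b was 2.21 ± 0.84 in the earlier and 2.30 ± 0.73 in the later tumours, that of Scn1a 1.40 ± 0.53 and 1.57 ± 0.52, that of Cacna2d2 1.73 ± 0.66 and 1.58 ± 0.61, and that of Scn2b 1.19 ± 0.52 and 1.23 ± 0.48. None of these passed adjustment within a period, where edgeR adjusted p ranged from 0.187 to 0.350. The pooled values are made of both periods, so closeness to them is no separate result. Tamoxifen replicate 14 is in the later period and was kept in its fit. With each title date as a block, the change rests on the 5 tumours of the 2 dates that both groups share, and the log2 fold changes were 2.72 ± 2.09, 0.06 ± 1.28, 1.08 ± 1.31 and 0.94 ± 0.74 for these genes in the same order, with 0 channel genes and 0 of all genes called. A test of the difference between periods found 0 channel genes at an unadjusted p under 0.05, and 0 of all genes after adjustment, with 492 at that unadjusted p.

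The other sodium channel genes did not pass. Scn2a, an alpha subunit of young axons, was at 71.8 ± 56.6 CPM with and 50.7 ± 48.2 CPM without tamoxifen, a log2 fold change of 0.52 ± 0.26. Scn8a was at 124.9 ± 37.0 and 121.0 ± 34.1 CPM, Scn3a at 22.6 ± 10.1 and 22.0 ± 12.7, and Scn3b at 27.2 ± 5.92 and 28.2 ± 4.43. Nalcn was at 144.7 ± 47.3 and 157.2 ± 45.4 CPM. The log2 fold changes of these 4 genes lay between -0.11 and 0.05.

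Of the calcium channel pore genes 0 of 8 passed. The L-type genes Cacna1c and Cacna1d had log2 fold changes of -0.14 ± 0.15 and -0.20 ± 0.11. Among Cav2 genes, Cacna1a had 0.32 ± 0.20, Cacna1b -0.21 ± 0.11 and the R-type gene Cacna1e -0.31 ± 0.20. Among T-type genes, Cacna1i had 0.98 ± 0.50, Cacna1g 0.66 ± 0.38 and Cacna1h 0.05 ± 0.18. Cacna1i was at 15.2 ± 16.8 CPM with and 7.76 ± 12.8 CPM without tamoxifen.

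Calcium channel auxiliary subunits other than Cacna2d2 also did not pass. The beta subunits Cacnb2 and Cacnb4 had log2 fold changes of 1.02 ± 0.35 and 0.94 ± 0.33 (edgeR adjusted p = 0.0804 and 0.0952), while Cacnb1 had -0.14 ± 0.10 and Cacnb3 -0.08 ± 0.16. DESeq2 called 5 channel genes, the 4 named and Cacnb2, and of all 13735 genes it called 633 higher and 136 lower, against 458 and 67 in edgeR. The 2 genes lower at an unadjusted p under 0.05 were both among the most abundant: Cacna2d1 at 432 ± 88.9 against 495 ± 116.9 CPM (log2 fold change -0.20 ± 0.09) and Cacng2 at 253.0 ± 35.5 against 280.6 ± 58.7 CPM (-0.15 ± 0.07), with edgeR adjusted p of 0.192 and 0.235. Cacna2d3 had -0.30 ± 0.21, and the other gamma subunits, Cacng4, Cacng5, Cacng7 and Cacng8, lay between -0.04 and 0.09.

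**Figure D4:**
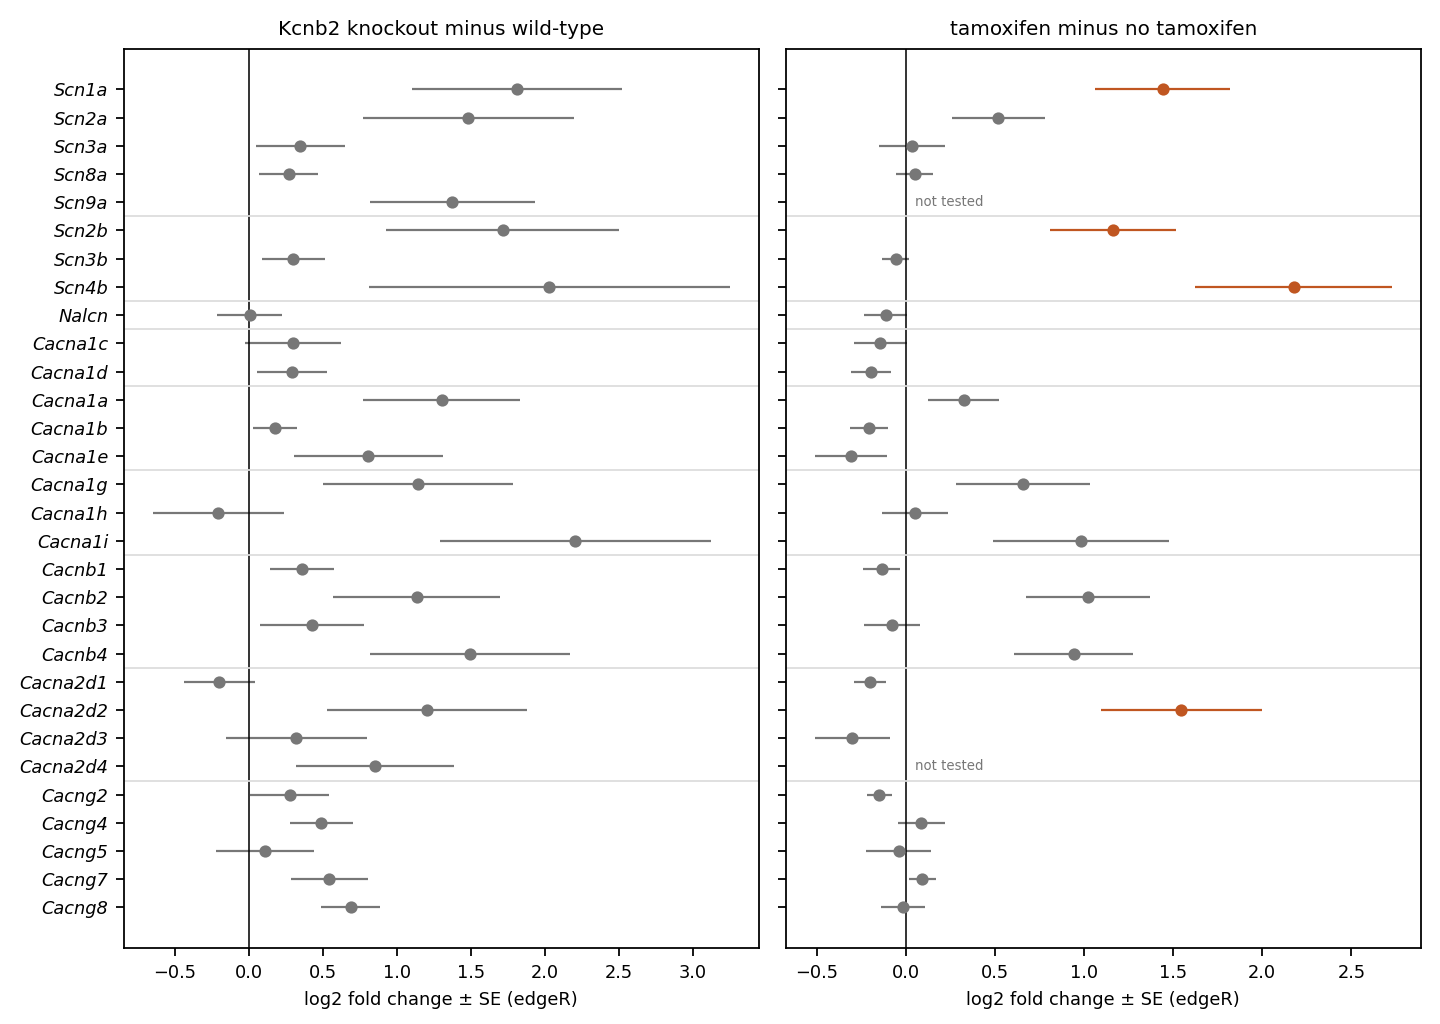
log2 fold change ± SE (edgeR) of each gene, for knockout minus wild-type SmoM2 tumours (left, 3 and 7 libraries; with title form as a covariate these changes rest on the 3 knockouts and wild-type replicates 1 to 3) and for tamoxifen minus no tamoxifen (right, 29 and 30); orange points have an adjusted p under 0.05, and grey lines part the roles. Of 30 genes at left 28 lie above 0 and 0 are orange; at right the 4 orange points are Scn1a, Scn2b, Scn4b and Cacna2d2.

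Some other genes of the same pathways were called with tamoxifen, where the fit called 3.82% of all genes, 3.33% as higher. Scn10a, a sodium channel gene best known from sensory neurons, was at 0 in all Lazy Piggy libraries with a treatment label. Of 19 partners, Fgf12, a fibroblast growth factor homologous factor that binds sodium channels, rose (log2 fold change 0.79 ± 0.23, edgeR adjusted p = 0.0355), and Nedd4l, a ubiquitin ligase that acts on sodium channels, fell (-0.24 ± 0.07, adjusted p = 0.0475). Of 22 calcium store and sensor genes 3 rose: the kinase gene Camk2a (2.00 ± 0.55, adjusted p = 0.0279), the ryanodine receptor gene Ryr3 (1.08 ± 0.31, adjusted p = 0.0377) and Itpr1, the inositol trisphosphate receptor abundant in Purkinje cells (1.47 ± 0.43, adjusted p = 0.0379).

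Markers of mature cerebellar cells moved with the tamoxifen label as well. Of 8 Purkinje markers tested 7 rose (median log2 fold change 2.26), and the 10 markers summed to 25.6 through a median of 261 to 5274 CPM with tamoxifen and to 14.1 through 33.7 to 943 CPM without. Of 9 oligodendrocyte markers 8 rose (median 1.45; sums 102 to 3663 and 111 to 760 CPM), of 5 interneuron markers 3 (median 1.96; sums 139 to 2247 and 70.2 to 579 CPM) and of 10 astrocyte markers 6 (median 0.80). The highest sum of the Purkinje, oligodendrocyte and interneuron lists was in tamoxifen replicate 14, and no gene of these lists was at 0 in all libraries. Of the 9 mature granule neuron markers, 12 granule neuron differentiation genes and 15 cell cycle genes 0 passed, with medians of 0.84, -0.11 and -0.10. The part of these cells in the change of the channel genes was not tested.

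Across tumours of 1 treatment group, each of the 28 tested channel genes was set against 4 marker scores, each the mean log2 CPM of a list, with permutation p-values adjusted over the 224 relations computed. Counting relations by the adjusted p of Pearson's r, with the Purkinje score 13 genes were positively and 2 negatively related in the tamoxifen tumours, and 11 positively in the others. Of all tested genes outside the list, 15.2%, 15.3% and 6.62% had an r at least as large, in that direction and group, as the smallest counted among the channel genes, and the shares after the next counts are of the same kind. Cacna2d2 had a Pearson r of 0.96 (Spearman rho 0.95) over the 29 tamoxifen tumours and 0.94 (0.87) over the 30 others. Scn1a had 0.96 (0.97) and 0.93 (0.77), Scn2b 0.92 (0.93) and 0.88 (0.69), and Scn4b 0.91 (0.92) and 0.90 (0.80). For Scn1a, Scn4b and Cacna2d2 each permutation p, for r and for rho, was 1e-05, the smallest that 100000 permutations give, and the adjusted p was 6.79e-05 for r and 8.96e-05 for rho.

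The relations with the Purkinje score were also computed without extreme tumours and within periods. Without the 2 tumours farthest from the median score, r was 0.95 and 0.89 for Scn1a, 0.88 and 0.86 for Scn4b, and 0.96 and 0.91 for Cacna2d2, with and without tamoxifen. For Scn1a, r was 0.99 in earlier and 0.95 in later tamoxifen tumours, and 0.92 and 0.93 in the others. Cacna1i, Cacnb2 and Cacnb4, which were not called with tamoxifen, had r of 0.96, 0.95 and 0.95 with tamoxifen and 0.80, 0.71 and 0.77 without. The close relations thus included genes that rose with tamoxifen and genes that did not pass. No score was made of the oligodendrocyte, interneuron, astrocyte or mature granule neuron lists. Whether the channel genes followed those lists as closely was not tested.

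The genes negatively related to the Purkinje score in tamoxifen tumours were Scn3b (r = -0.62, permutation p = 0.00013, adjusted p = 0.00062; rho = -0.56, permutation p = 0.00184, adjusted p = 0.00711) and Cacna2d1 (r = -0.50, permutation p = 0.00583, adjusted p = 0.0165; rho = -0.46, permutation p = 0.0140, adjusted p = 0.0386). In the other tumours r was -0.30 and -0.19, with adjusted permutation p of 0.208 and 0.449. Without the 2 farthest tamoxifen tumours, r was -0.51 and -0.35. Whether r differed between treatment groups was not tested.

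With the granule neuron differentiation score, Cacna2d3, an alpha2delta subunit, had the largest r, 0.79 (rho 0.81) with and 0.82 (0.85) without tamoxifen. In tamoxifen tumours 12 genes were positively related (7.04% of all genes), and in the others 11 (9.84%), with 1 negative (10.5%), Cacng5 (r = -0.43, adjusted permutation p = 0.0462; rho = -0.37, adjusted permutation p = 0.105). L-type Cacna1c had r of 0.73 (0.69) and 0.64 (0.62), R-type Cacna1e 0.65 (0.57) and 0.75 (0.67), and Cacnb3 0.64 (0.65) and 0.75 (0.79). Cacnb1, T-type Cacna1g and Cacna1b, the N-type pore of presynaptic terminals, had r of 0.60, 0.60 and 0.56 with and 0.75, 0.72 and 0.74 without tamoxifen. Of the 4 genes that rose with tamoxifen 0 were counted: Scn4b, Scn1a, Cacna2d2 and Scn2b had r of 0.19, 0.39, 0.41 and 0.41 with and 0.09, 0.21, 0.10 and 0.19 without it.

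With the cell cycle score, most relations were negative: 14 in tamoxifen tumours (21.8% of all genes) and 16 in the others (14.3%). Cacna1a had r of -0.85 (rho -0.82) and -0.80 (-0.73), with adjusted permutation p of 6.79e-05 for r and 8.96e-05 for rho in both groups. Scn8a had -0.71 (-0.60) and -0.75 (-0.66), and Cacnb4 -0.75 (-0.75) and -0.76 (-0.66). The 2 positive relations (14.9% of all genes), Scn3a and Scn3b in tamoxifen tumours at 0.60 and 0.71, rested on the 2 tumours farthest from the median score: without them r was -0.03 and 0.11, and rho over all 29 was 0.15 and 0.28.

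With the score of pericytes, smooth muscle and fibroblasts, 2 genes were negatively related with tamoxifen (1.15% of all genes) and 6 without (5.14%), or 3 without where the log2 CPM used a prior count of 0.5. The 2 were Cacng4 (r = -0.64, rho = -0.56) and Cacna2d3 (r = -0.49, rho = -0.53). For Cacng4, r was -0.38 without the 2 farthest tumours and -0.12 in tumours without tamoxifen. In all 4 scores the points share library depth and the composition of the same pieces of tumour.

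**Figure D5:**
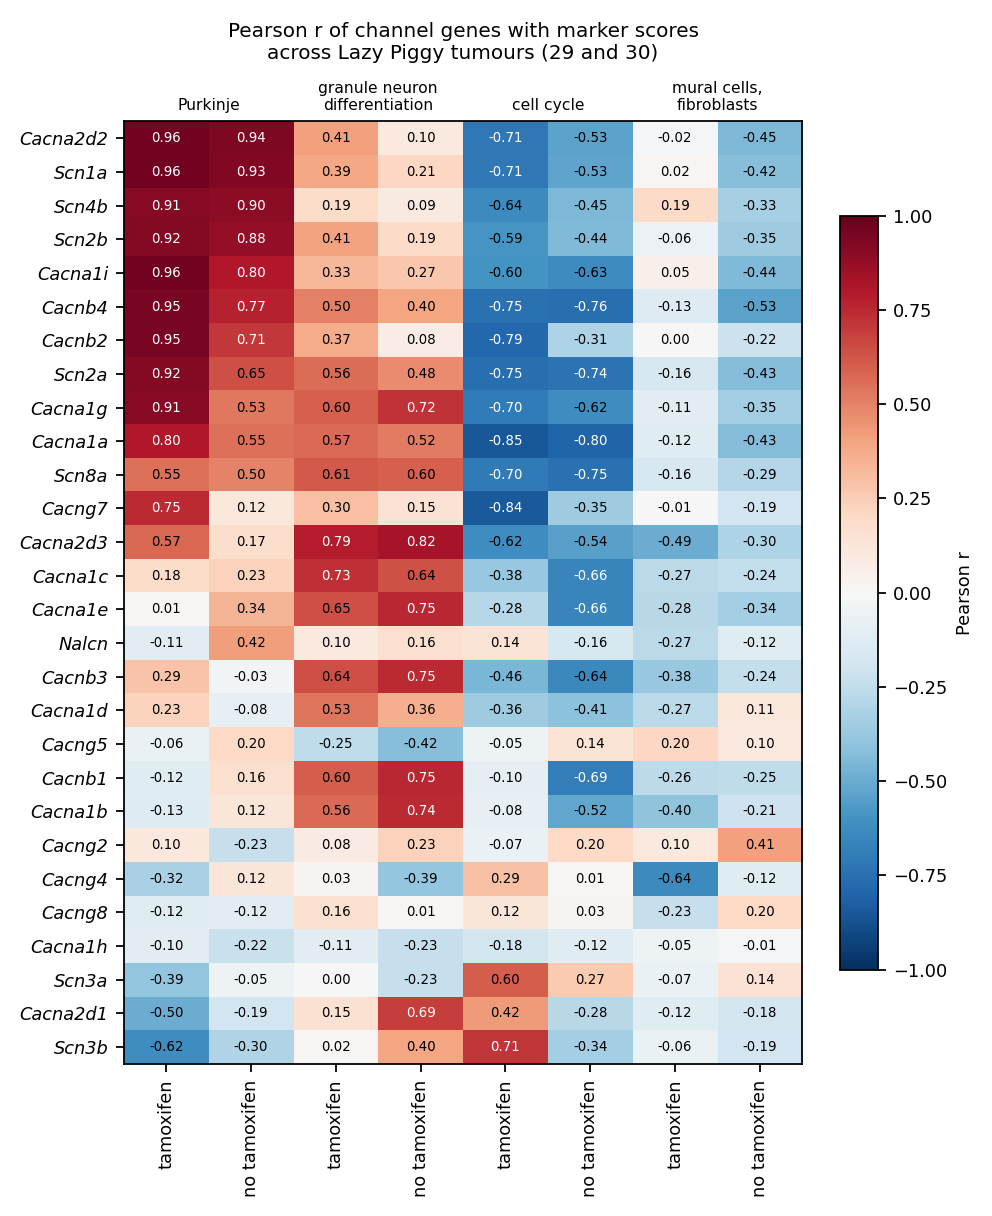
Pearson r of 28 channel genes (rows, ordered by the sum of both Purkinje columns) with 4 marker scores across the 29 tamoxifen and the 30 other Lazy Piggy tumours; red is positive, blue negative, and the value is printed in each cell. Cacna2d2, Scn1a, Scn4b and Scn2b come first by the sum of both Purkinje columns, at 0.88 to 0.96. In the tamoxifen column alone, Cacna1i, Cacnb2 and Cacnb4, at 0.96, 0.95 and 0.95, exceed Scn2b and Scn4b, at 0.92 and 0.91. Cacna1a has -0.85 and -0.80 with the cell cycle score.

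Set side by side, the 4 genes that rose with tamoxifen had log2 fold changes in the Kcnb2 comparison of 1.81 ± 0.71 for Scn1a, 1.72 ± 0.79 for Scn2b, 2.03 ± 1.22 for Scn4b and 1.21 ± 0.68 for Cacna2d2, none of which passed (edgeR adjusted p from 0.567 to 0.590). The models, the depths and the tables differ, and no test was made between them. Cacna2d1 had -0.20 ± 0.24 with the knockout and -0.20 ± 0.09 with tamoxifen, and neither passed. The Kcnb2 gene itself was at 6.75 ± 2.53 CPM with and 7.24 ± 2.42 CPM without tamoxifen, a log2 fold change of -0.11 ± 0.14 that did not pass.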

How the data were processed

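The authors deposited read counts per gene in 2 tables, one per model, made from polyadenylated RNA. STAR 2.5.4b and the build mm9 are named per the submitters' processing notes; the counting annotation and its use of strand are not given in the labels, so reads of overlapping and antisense genes cannot be told apart. Identifiers were named for 53274 of 53379 rows and for 32882 of 37954 gene rows; 10 rows of the Lazy Piggy table were construct sequences (0.0012% of counts) and were left out. Libraries held 23923453 to 39387125 and 5869618 to 8667344 counts, which limits precision for genes under 1 CPM.

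Counts were tested with edgeR 4.0.16 (R 4.3.3), quasi-likelihood, TMM scaling, a filter with a minimum count of 10, Benjamini-Hochberg adjustment over all tested genes and a threshold of 0.05, and again with DESeq2 1.42.0; the fitting script was tested on simulated data. The SE of an edgeR log2 fold change is not given by its test. It was derived as the absolute log2 fold change over the square root of the test's F statistic. CPM scales each count to a library total of 1000000, and CPM per kb divides it by GENCODE M21 exon length. Scores used log2 CPM with a prior count of 2 and 100000 permutations. The Kcnb2 fit had title form as a covariate, since the 4 wild-types with the other form may be a batch. Sex was read from 4 Y-linked genes.

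Genes named in full were those past the threshold, otherwise the 6 with the smallest p, and the 3 highest and 3 lowest per length; of each pathway list, those past the threshold. The genes and lists were chosen with earlier results of these data known. Alternatives tried were other size factors, DESeq2, no filter, sex, title form, period or date, another prior count, other denominators, and leaving out each library. The library without a treatment label entered no comparison. The tamoxifen result of the list of other channel genes is not reported here.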

Additional observations from a re-analysis of the deposited data

Results flagged for a closer look

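In the 7 SmoM2 tumours labelled wild-type, the highest or lowest value stood apart from the others by Dixon's criterion for 7 channel genes. By chance about 1 in 20 independent groups is flagged, but these genes share the same 7 libraries. The share of all genes flagged was not computed. Wild-type replicate 4 stood high in Scn1a (47.06 CPM), Scn2b (98.17 CPM), Scn4b (20.3 CPM), Cacna1i (23.1 CPM) and Cacng8 (12.05 CPM). Wild-type replicate 1 stood low in Nalcn at 41.04 CPM, and wild-type replicate 5 in Cacna1d at 34.85 CPM. Replicate 4 also had the highest oligodendrocyte sum of the 7, 3134 CPM, and the part of those cells was not tested.

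The Lazy Piggy library with no treatment label held 17 channel genes at levels above every tumour without tamoxifen. The share of all genes at such levels in this library was not computed. Its sums of cell cycle and of granule progenitor and Hedgehog genes lay below those of all 59 labelled tumours. Its sodium channel genes were Scn1a at 266.2 CPM, Scn2a at 493.9, Scn8a at 467.5, Scn2b at 374.7, Scn3b at 109.5 and Scn4b at 642.6. Its pore-forming calcium channel genes were Cacna1h at 53.34 CPM and Cacna1i at 160.1. Its beta subunits were Cacnb1 at 143.5 CPM, Cacnb2 at 46.19, Cacnb3 at 224.7 and Cacnb4 at 461.1. Its alpha2delta and gamma subunits were Cacna2d2 at 61.41 CPM, Cacna2d3 at 125.3, Cacna2d4 at 2.647, Cacng7 at 193.8 and Cacng8 at 27.93. Apart from Cacna2d2 and Cacng7, these 15 were also above every one of the 59 labelled tumours.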

How the results depend on the processing

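Replicates were numbered in accession order and are not paired by number. For the Kcnb2 comparison no paired analysis was possible because no title gives a shared number or date. For the Kcnb2 comparison, 0 genes passed in each of 10 fits that left out 1 library, and DESeq2 called 10. Signs changed for Nalcn (log2 fold change -0.008 with no filter, -0.037 with sex, -0.251 with no title covariate), for Cacng5 (-0.312 with no title covariate), and, with wild-type replicate 3 counted as a knockout, for Cacna1c (-0.028), Cacnb3 (-0.022), Cacna2d3 (-0.085) and Cacng2 (-0.076). With 1 library left out they changed for Cacna1c (-0.070 to 0.460 over all such fits), Cacna1h (-0.517 to 0.180), Cacna2d3 (-0.090 to 0.594), Cacng5 (-0.293 to 0.351) and Nalcn (-0.229 to 0.191).

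Of 52 title dates 2 were shared by both treatment groups, over 5 tumours, and what they date is not given. With the title date as a replicate block, an alternative chosen after seeing the data that left 6 residual degrees of freedom, 0 genes and 0 channel genes were called, and signs changed for Scn3a (log2 fold change -0.453), Scn8a (-0.522), Nalcn (0.228), Cacna1a (-0.579), Cacna1g (-0.385), Cacna1h (-0.869), Cacnb4 (-0.231), Cacng4 (-0.135) and Cacng7 (-0.211).

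For tamoxifen, the fits that left out 1 tumour called 138 to 785 genes and 0 to 6 channel genes. Earlier titles alone gave 0 genes and 0 channel genes and later titles 2 genes and 0 channel genes, in fits with fewer tumours. Earlier titles alone changed the sign of Scn3a (-0.125), Scn3b (0.037), Cacna1c (0.247), Cacna1e (0.083), Cacna1h (-0.002), Cacnb1 (0.074), Cacna2d3 (0.003) and Cacng5 (0.080), and later titles that of Cacng8 (0.028). With 1 tumour left out, signs changed for Cacna1h (-0.010 to 0.131 over all such fits), Cacnb3 (-0.112 to 0.003), Cacng5 (-0.154 to 0.006), Cacng8 (-0.065 to 0.012), Scn3a (-0.025 to 0.130) and Scn8a (-0.025 to 0.092). None of the genes whose sign changed had been called. The difference between periods changed sign for Cacnb3 (-0.005 with no filter, an alternative chosen after seeing the data). A prior count of 0.5 left 3 genes related to the pericyte score without tamoxifen. The cause of these changes was not tested. Depth limited Scn9a and Cacna2d4, which had under 1 CPM in Lazy Piggy tumours.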

Other observations

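The library with no treatment label differed from the 59 labelled Lazy Piggy tumours in most channel genes. Of 30, 15 lay above their range, 14 within it and 1, Cacng2 at 148.2 CPM, below it. The share of all genes outside that range was not computed, so the counts do not set channel genes apart from other genes. Scn4b, which reached 88.3 CPM at most in the 59, was at 642.6 CPM, Cacna1h was at 53.3 against at most 10.6, and Cacnb1, the beta subunit best known from skeletal muscle, at 143.5 against at most 24.1. Cacna2d2 lay within the range at 61.4 CPM, as did P/Q-type Cacna1a at 207.9 CPM, and Nalcn was at 146.0 CPM against a median of 141.6. Its 15 cell cycle genes summed to 23.2 CPM against 936 to 4648 in the 59, and its 12 granule progenitor and Hedgehog genes to 102.8 CPM against 3148 to 6752. Its 10 oligodendrocyte markers summed to 6318 CPM against at most 3663, its 10 astrocyte markers to 6375 against at most 4807, and its 10 Purkinje markers to 402.5 CPM, within the range. The sums of cell cycle and of granule progenitor and Hedgehog genes thus lay below those of all 59 tumours. Whether the piece was tumour was not tested. These are values of 1 library with no replicate.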
